A study of Rattus norvegicus with 12 samples.

Results

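The miR-29 family is represented by 3 of the 375 miRNA assays (384 wells in all) on a TaqMan low density card that was run on the medial entorhinal cortex (MEC) of Long Evans rats. Its members are miR-29a, miR-29b and miR-29c, taken as the rows of the raw and scaled tables that carry those names. The rows were picked by name alone, but the family was chosen with earlier results of these data known. The 12 samples form 3 groups. The stellate group (5 samples) holds DiO-positive cells, sorted by fluorescence from MEC dissociated on postnatal day 4 or 5, after the dye had been iontophoresed into the dentate gyrus of both hemispheres on day 2 and had travelled back along the axons of layer II cells. The non-stellate group (5 samples) holds the DiO-negative cells of the same kind of suspension, from pups with the same injection, and so takes in any cell that carried no dye, whatever its type. The tissue group (2 samples) is MEC dissected on day 23 and kept in RNAlater, neither dissociated nor sorted, and the labels call it a control for comparing technologies. Sorted cells of the left and right hemisphere were combined, and no genotype is given for any group. The description field of non-stellate 3 and 5 says that they were labelled, against their titles, sources and fluorescence entries, by which they were kept as non-stellate.

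The miR-29 family is a set of small regulatory RNAs that bind messenger RNAs through the same seed and lower their translation or stability. Well-known targets include collagen and other extracellular matrix genes, DNA methyltransferases and pro-apoptotic BH3-only genes, and the family is known for low levels in the immature brain and high levels in the mature brain. The comparison that bears on cortical maturation here is that of day 23 tissue with day 4 or 5 cells. Age, sorting, dissociation, RNA kit and the amount of RNA that went into the reaction all change together between these groups and cannot be told apart.

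The mature 3p strands are printed because the members can be told apart only by their last bases and by base 10. The sequences are the RefSeq rat entries on GRCr8, capitals mark the seed (bases 2 to 8), and all 3 members matched an entry. The assay names give no strand, and in older naming the plain name stands for the 3p strand.
rno-miR-29a-3p: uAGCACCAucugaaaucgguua
rno-miR-29b-3p: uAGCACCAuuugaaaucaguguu
rno-miR-29c-3p: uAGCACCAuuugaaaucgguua
Of 693 mature names in the RefSeq table, these 3 hold the seed AGCACCA at bases 2 to 8. Counted from 1 at the 5′ end, miR-29a and miR-29c differ by 1 substitution, C10U. From miR-29c to miR-29b there are 3 substitutions, G18A, U21G and A22U, and miR-29b is 23 bases long against 22.

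The family comes from 2 loci, each with a miR-29b hairpin. On the minus strand of chromosome 4, Mir29b1 (60618334 to 60618414) and Mir29a (60617955 to 60618042) are 291 bases apart. On the plus strand of chromosome 13, Mir29b2 (109098831 to 109098911) and Mir29c (109099359 to 109099446) are 447 bases apart. The mature miR-29b-3p of both loci differs by 0 substitutions, so 1 miR-29b assay reads both. MiR-29a and miR-29c each come from 1 locus. How well their assays keep them apart at 1 substitution was not tested.

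Levels were read as Ct, the PCR cycle at which a well crosses threshold, so that 1 cycle less is 1 log2 unit more RNA if each cycle doubles the product. A Ct of 40 marks an undetermined well, and the highest determined Ct on any card was 38.2. The U6 scale is the Ct of an assay minus the mean of the 4 wells of U6, a small nuclear RNA, in the same sample. Median centring instead subtracts each sample's median over 176 assays, those determined in every sorted sample. Determined miRNA assays numbered 234 to 260 in stellate samples, 203 to 241 in non-stellate samples, and 292 and 302 in tissue. Mean U6 Ct ran from 16.5 to 20.2 in sorted samples and was 15.6 and 16.0 in tissue, whereas the median Ct ran from 28.0 to 30.9 and was 23.7 in both tissue samples. The 2 references therefore place tissue differently, and results are given on both. U6 was the only assay with replicate wells, with a pooled SD of 0.366 cycles, so the error of a single miR-29 well is not measured directly. In bulk samples, fewer cells of a type and less RNA per cell cannot be told apart.

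MiR-29a, the member of the chromosome 4 locus, was determined in all 12 samples. Raw Ct in stellate samples 1 to 5 was 28.21, 28.80, 30.65, 28.84 and 27.92, in non-stellate samples 1 to 5 it was 28.37, 29.24, 30.66, 29.26 and 31.57, and in tissue it was 19.33 and 19.23. On the U6 scale the same wells gave 11.39, 10.64, 11.63, 10.97 and 11.41 in stellate samples, 10.29, 11.50, 12.73, 10.77 and 11.34 in non-stellate samples, and 3.37 and 3.63 in tissue. The sorted groups overlapped throughout, and both tissue samples lay 6.65 cycles or more from the nearest sorted sample. It was the steadiest member among sorted samples, at 11.27 ± 0.67 cycles (SD, n = 10).

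MiR-29b, the member that both loci make, was the one with missing wells. On the U6 scale it stood at 18.75, 15.20, 14.78, 16.82 and 16.80 in stellate samples 1 to 5 and at 8.20 and 8.31 in tissue. Non-stellate 1 and 2 stood at 16.15 and 16.99, whereas non-stellate 3, 4 and 5 were undetermined and enter at 22.07, 21.51 and 19.77, which are 40 minus the U6 mean. The determined wells of the sorted groups overlapped, and every determined sorted well had a raw Ct of 33.3 to 35.6, against 24.2 and 23.9 in tissue. Sorted samples were therefore read close to the end of the measurable range, and the tissue wells were not.

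MiR-29c, the member of the chromosome 13 locus, was determined in all 12 samples. On the U6 scale it stood at 18.07, 13.57, 15.30, 13.84 and 14.61 in stellate samples 1 to 5, at 17.19, 15.12, 15.24, 13.79 and 14.75 in non-stellate samples 1 to 5, and at 5.86 and 6.39 in tissue. Stellate 1 and non-stellate 1 were the lowest of their groups in miR-29c RNA. Tissue was separated from the nearest sorted sample by 7.18 cycles. Raw Ct ran from 31.1 to 35.3 in sorted samples, against 21.8 and 22.0 in tissue. The latest sorted wells were thus close to the end of the measurable range.

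**Figure D1:**
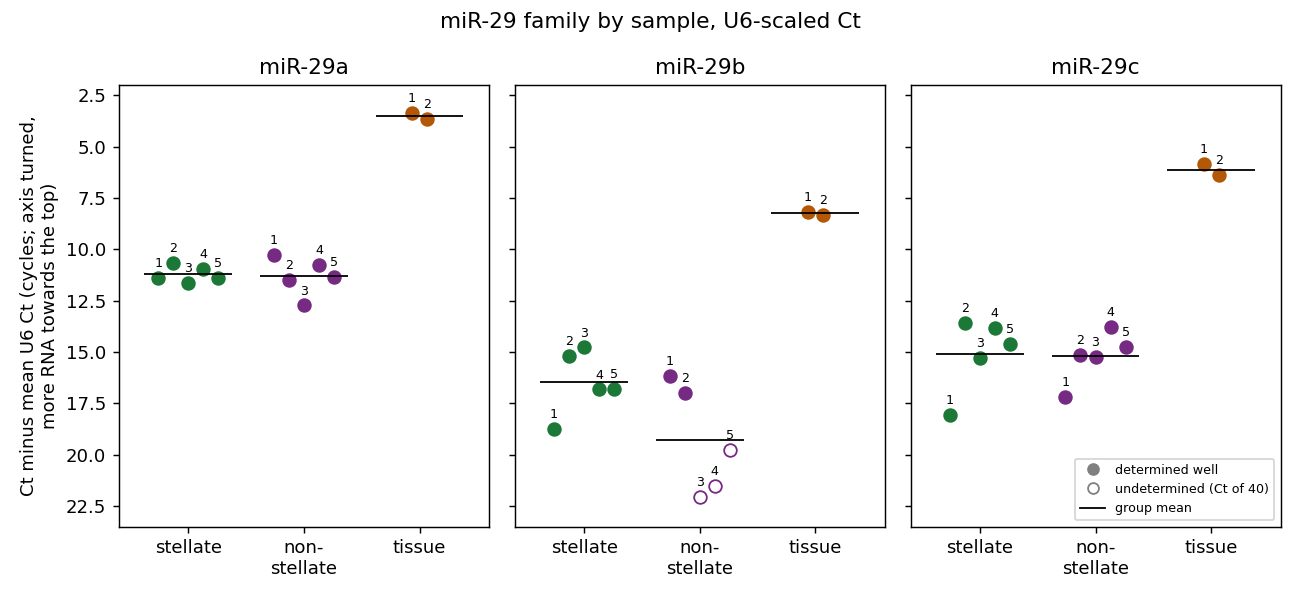
Ct minus mean U6 Ct in cycles for each member (panels) in each sample (numbered points), with the axis turned so that more RNA is higher. Filled points are determined wells, open points are undetermined wells at Ct 40, and lines are group means. Both tissue samples lie above all 10 sorted samples in every panel, the sorted groups overlap, and the 3 open points are non-stellate miR-29b.

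All 3 members were higher in day 23 tissue than in sorted cells. On the U6 scale the log2 difference between tissue and the mean of both sorted groups was 7.76 ± 0.61 (SE) for miR-29a, 9.63 ± 1.41 for miR-29b and 9.02 ± 1.05 for miR-29c, from 2 tissue and 10 sorted samples. If each cycle doubles the product, these are 217-fold, 790.5-fold and 520.3-fold. The limma adjusted p was 3.4e-06, 0.00012 and 3e-05, in a fit over 222 tested assays. Of those 222, 138 (62.2%) were higher in tissue on this scale and 3 (1.35%) lower, so a call alone says little about the family.

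The size of the differences set the members apart from most tested assays. The median difference over all 222 assays was 3.02 on the U6 scale, and the members stood 4.74, 6.61 and 6.01 above it. Among the tested assays they ranked 8 (miR-29a), 2 (miR-29b) and 3 (miR-29c), and miR-29a had the smallest p-value. The 153 assays undetermined in more than 3 sorted samples have no rank. The ranking thus leaves out assays read in tissue but mostly missing from sorted cells, such as miR-219. MiR-384-3p ranked 1 at 9.76, and miR-376c, miR-340-5p, miR-136 and miR-376a filled ranks 4 to 7 with 8.93 to 7.96. Of these neighbours, miR-376a was determined in all 10 sorted samples, as were miR-29a and miR-29c, while miR-384-3p, miR-376c and miR-29b were each undetermined in 3.

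**Figure D2:**
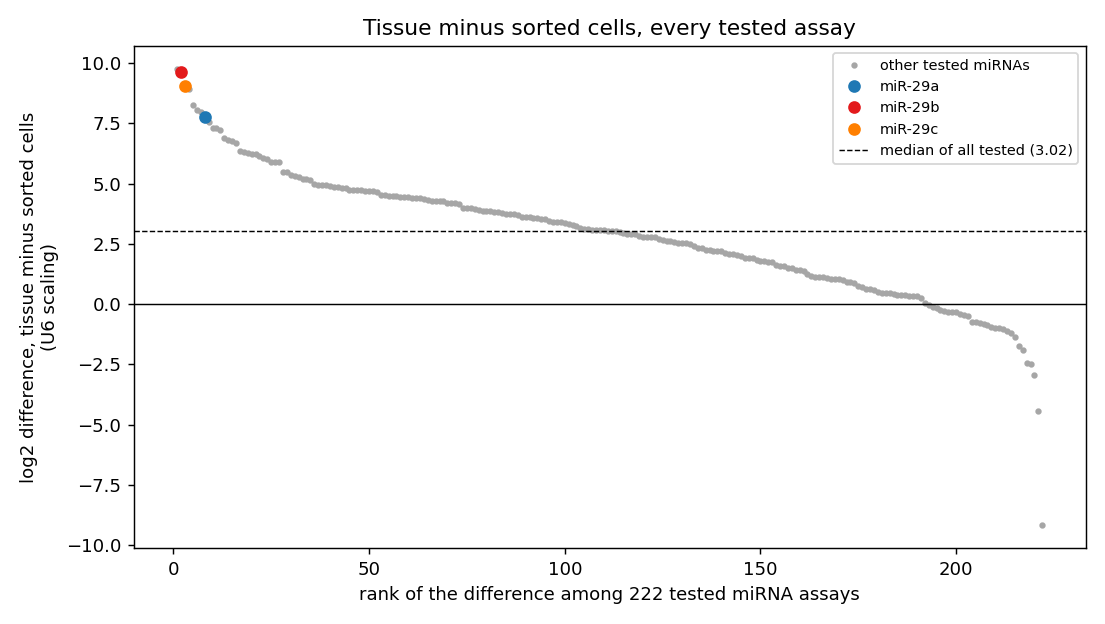
Log2 difference, tissue minus the mean of both sorted groups on the U6 scale, for each of 222 tested assays against its rank. The solid line is 0 and the dashed line is the median of all assays, 3.02; miR-29b, miR-29c and miR-29a lie at ranks 2, 3 and 8, between 7.76 and 9.63.

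Median centring took out the general shift and left the family high. The log2 differences became 4.77 ± 0.37 (SE), 6.64 ± 1.33 and 6.03 ± 0.96 for miR-29a, miR-29b and miR-29c (limma adjusted p = 5.6e-06, 0.0019 and 0.00041), while 53 of 222 assays (23.9%) were higher and 56 (25.2%) lower. Each tissue sample also exceeded every sorted sample for all 3 members on this scale, by 3.87, 3.84 and 4.62 cycles at the closest, which was so for 60 of 222 assays (27.0%), against 151 (68.0%) on the U6 scale. An exact permutation of the sample labels gave the smallest p that 2 against 10 allows, 0.0152 (two-sided), for each member on both scales.

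Each reference RNA gave its own size. Scaling to Y1, a small cytoplasmic RNA, gave the smallest values of the references tried, 4.26, 6.12 and 5.52 for miR-29a, miR-29b and miR-29c, and scaling to U87, a small nucleolar RNA, the largest, 8.52, 10.38 and 9.78. The median of all assays moved from -0.49 with Y1 to 3.77 with U87. A scaling moves the difference of every assay by the same amount, so the ranks of the members and their distance from the median of all assays are the same by construction under each of the 7 scalings and are no sign of stability.

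For miR-29b, the size rests in part on the undetermined wells. With those wells treated as missing, its difference was 8.26 (95% confidence interval 6.34 to 10.19) on the U6 scale and 5.32 (3.72 to 6.92) after median centring. With all Ct above 35 set to 35 it was 8.07. In both of these settings miR-29c had the largest difference of all 222 assays, at 9.02 and 9.0, and miR-29b ranked 2 and 3. The intervals of the 3 members overlapped in each of these settings, so their order among themselves was not resolved by these fits.

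**Figure D3:**
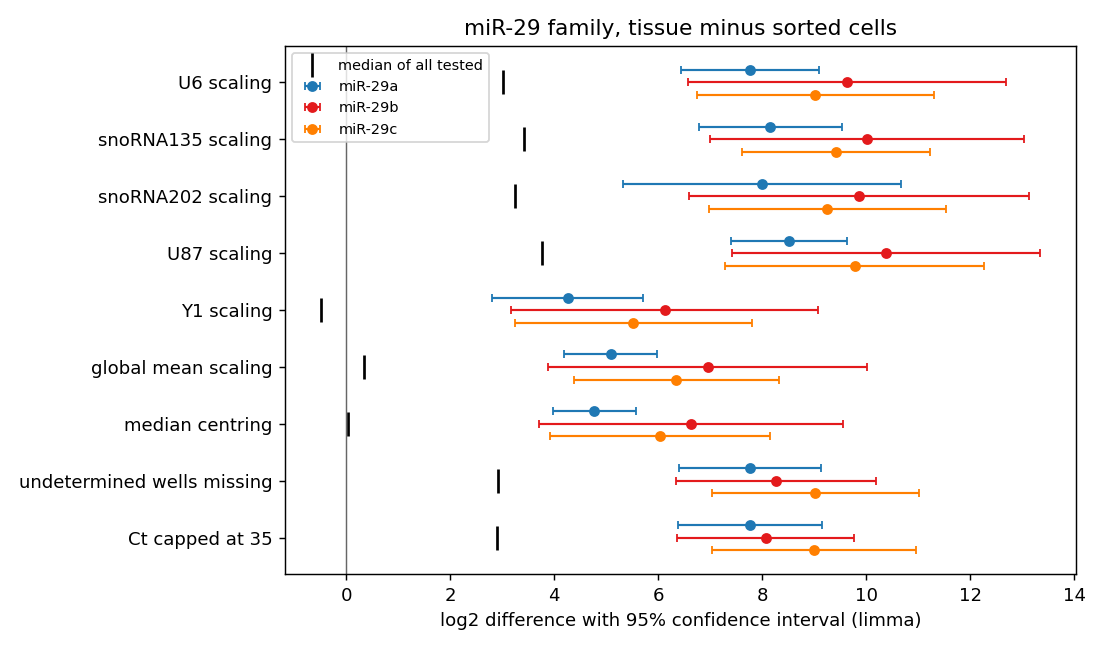
Log2 difference, tissue minus sorted cells, with the 95% confidence interval from limma for each member (colours) under 7 scalings and 2 treatments of undetermined wells (rows). Black ticks are the median of all tested assays in that setting; every interval of every member lies above both 0 and that tick.

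The members were also compared with each sorted group by itself, with the same 2 tissue samples in both comparisons. Tissue exceeded stellate cells by 7.70, 8.21 and 8.95 log2 units on the U6 scale for miR-29a, miR-29b and miR-29c, and exceeded non-stellate cells by 7.82, 11.04 and 9.09. After median centring the values were 4.91, 5.42 and 6.16 against stellate cells and 4.64, 7.86 and 5.91 against non-stellate cells. The largest limma adjusted p of these 12 was 0.0101, for miR-29b against stellate cells after median centring. The wider gap of miR-29b to non-stellate cells is where the 3 undetermined wells lie.

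A comparison that needs no reference RNA is the Ct difference between 2 members in the same sample. Because each assay has its own efficiency, this says nothing on which member is more abundant. A change of the difference between samples is a change of their ratio only if the efficiencies are alike. Otherwise it can also move with the amount of RNA, and mean raw Ct of miR-29a was 19.3 in tissue and 29.4 in sorted samples. MiR-29b minus miR-29a was 4.83 and 4.68 cycles in tissue, and in the 7 sorted samples with both wells determined it ran from 3.15 to 7.36. MiR-29c minus miR-29a was 2.49 and 2.76 in tissue and 2.51 to 6.90 in sorted samples. MiR-29b minus miR-29c was 2.34 and 1.93 in tissue and -1.03 to 2.98 in sorted samples with both wells determined. Tissue lay inside or at the edge of the sorted range for each pair of members.

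No test found these Ct differences between members to differ between tissue and sorted cells beyond the spread. The mean difference of miR-29c minus miR-29a was 2.62 ± 0.19 cycles in tissue (SD, n = 2) and 3.88 ± 1.57 in sorted samples (SD, n = 10; exact two-sided permutation p = 0.273, 0.455 adjusted over the 3 pairs of members). For miR-29b minus miR-29a, with undetermined wells left out, the means were 4.75 ± 0.10 (n = 2) and 5.38 ± 1.29 (n = 7; exact permutation p = 0.50). For miR-29b minus miR-29c they were 2.13 ± 0.29 (n = 2) and 1.11 ± 1.47 (n = 7; exact permutation p = 0.361, all 3 adjusted to 0.50). Shifts of about 1 cycle in these Ct differences therefore could not be resolved.

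**Figure D4:**
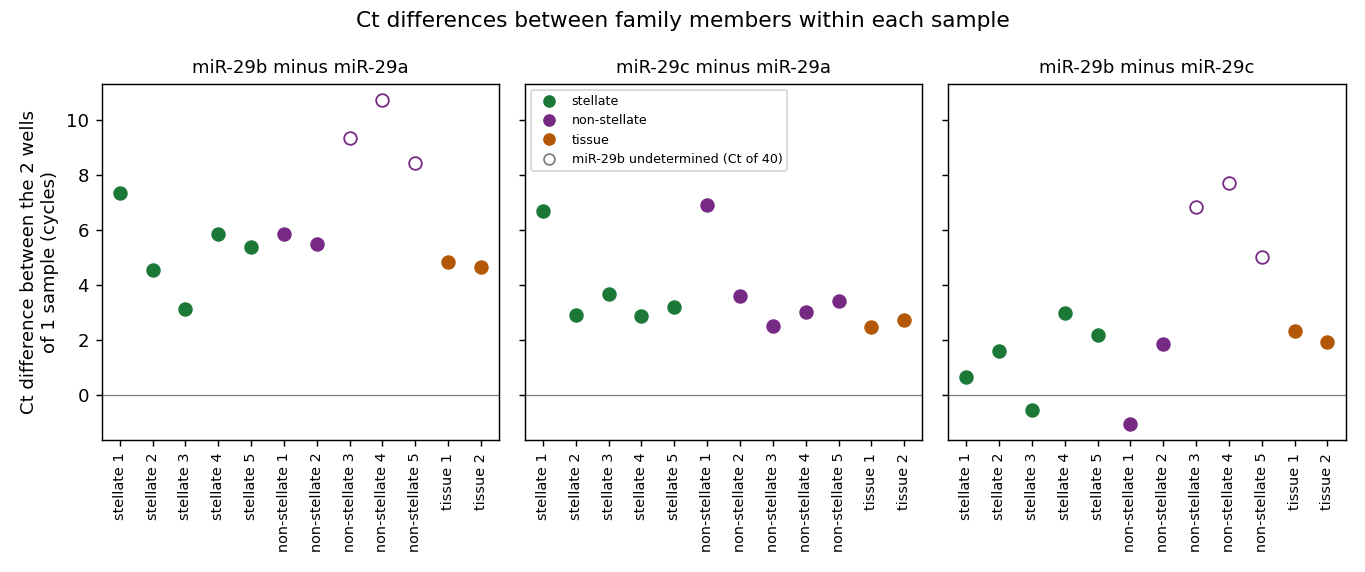
Ct difference between the wells of 2 members in the same sample (cycles), for the 3 pairs of members (panels) and 12 samples (points, coloured by group). Open points have an undetermined miR-29b well at Ct 40. In the middle panel stellate 1 (6.68) and non-stellate 1 (6.90) lie above the other samples, which run from 2.49 to 3.67.

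MiR-29c departed from miR-29a in 1 pair of sorted samples. Stellate 1 and non-stellate 1, which carry the same replicate number, had miR-29c minus miR-29a differences of 6.68 and 6.90 cycles, whereas the other 8 sorted samples ran from 2.51 to 3.67. Most of the shift came from the miR-29c well. After median centring miR-29c stood at 6.72 and 6.39 cycles in this pair and at 2.91 to 4.81 in the others. MiR-29a stood at 0.04 and -0.51 against -0.05 to 1.14, so non-stellate 1 also lay outside the range of the others in miR-29a. Across the 176 assays determined in all sorted samples, 21 (11.9%) had both samples of pair 1 as their lowest, against 0 to 5 for each other pair. MiR-29c had the widest gap of all 176 to the next sample, 1.58 log2 units, followed by miR-296-5p at 1.28. Without this pair miR-29c minus miR-29a was 3.15 ± 0.40 cycles in sorted samples (SD, n = 8) against 2.62 in tissue (exact permutation p = 0.111, 0.333 adjusted).

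No member passed the adjusted test between stellate and non-stellate cells. Under U6 scaling 0 of 222 assays (0.0%) passed an adjusted p of 0.05 in either direction by limma, with 16 at an unadjusted p under 0.05, and after median centring 0 passed with 28. MiR-29a differed by 0.12 log2 units (95% confidence interval -1.06 to 1.29) and miR-29c by 0.14 (-1.82 to 2.10), stellate minus non-stellate. After median centring both estimates turned below 0, to -0.28 (-0.99 to 0.43) and -0.25 (-2.09 to 1.58). These intervals leave room for differences of about 1 log2 unit in miR-29a and 2 in miR-29c.

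MiR-29b was read higher in stellate cells where undetermined wells count as 40. On the U6 scale the difference was 2.83 ± 1.2 (SE), higher in 4 of 5 pairs of the same number. Without pairing, the limma p was 0.037 unadjusted and 0.587 adjusted, and p = 0.0794 by exact permutation (two-sided). An exact sign-flip test of the pair differences gave p = 0.1875, where 0.0625 is the smallest possible. The pair differences were -2.59, 1.80, 7.30, 4.69 and 2.97, and an undetermined non-stellate well set the last 3 of them. In the pairs with both wells determined, 1 and 2, the mean difference was -0.40. With undetermined wells missing the difference was 0.11 (95% confidence interval -1.96 to 2.17), and with Ct limited to 35 it was -0.05. The miR-29b wells were determined in 5 of 5 stellate and 2 of 5 non-stellate samples (Fisher's exact two-sided p = 0.167). Of 375 miRNA assays, 5 (1.33%) were determined in all stellate samples and missing in 3 or more non-stellate samples, and 0 showed the opposite. Non-stellate 3 and 5 also had the fewest determined miRNA assays, 216 and 203, while non-stellate 4 had 241. They are also the samples whose description field conflicts with their other labels. The part of RNA amount in the missing wells was not tested.

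**Figure D5:**
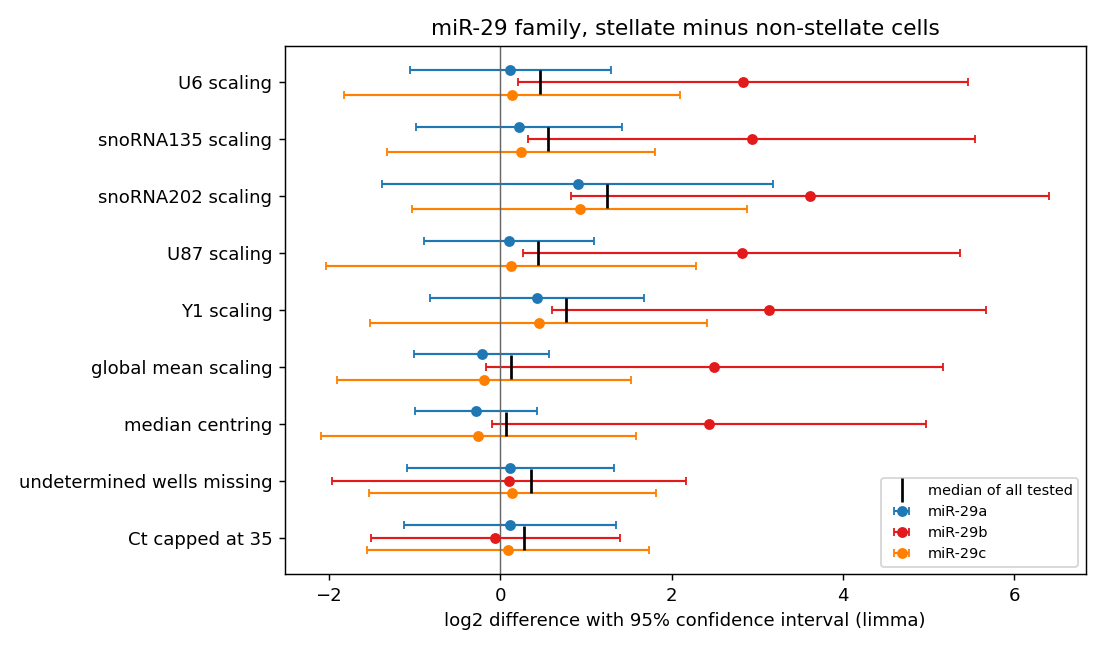
Log2 difference, stellate minus non-stellate, with the 95% confidence interval from limma for each member (colours) under 7 scalings and 2 treatments of undetermined wells (rows). Black ticks are the median of all tested assays; miR-29a and miR-29c intervals span 0 in every row, and the miR-29b estimate falls from 2.83 to 0.11 and -0.05 in the bottom 2 rows.

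How the members varied together was examined over the 10 sorted samples after median centring. Pearson's r was -0.39 for miR-29c with miR-29a (permutation p = 0.26), -0.04 for miR-29b with miR-29a (p = 0.918 by permutation) and -0.30 for miR-29b with miR-29c (permutation p = 0.405). Spearman's rho was -0.07, -0.16 and -0.28 (permutation p = 0.867, 0.655 and 0.427). Adjusted over the 3 pairs of members, none was under 0.608 for r or 0.867 for rho. Leaving out the 2 samples farthest from the median of miR-29c, stellate 1 and non-stellate 1, moved miR-29c with miR-29a to r = 0.76 (permutation p = 0.032, adjusted 0.0961) and rho = 0.62 (permutation p = 0.115, n = 8). The sign of that relation thus rests on pair 1. For both relations of miR-29b the farthest samples were non-stellate 3 and 4, whose miR-29b wells were undetermined, and without them r was -0.05 with miR-29a and 0.08 with miR-29c. Without stellate 1 and non-stellate 1, r of miR-29b was -0.28 with miR-29a and -0.49 with miR-29c (permutation p = 0.496 and 0.222).

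The assays with the most similar pattern were sought among 174 others determined in all 12 samples. Likeness was the root mean square difference, over the 12 median-centred samples, between an assay and the mean of the 3 members, each centred on its own mean. The 5 nearest were miR-410 (0.96 log2 units), miR-137 (1.02), miR-376a (1.21), miR-335-5p (1.22) and miR-411 (1.28), against a median of 2.39 for all 174. The members themselves stood at 0.86 (miR-29a), 1.19 (miR-29c) and 1.5 (miR-29b) from their own mean, so all 5 of these assays were nearer to it than miR-29b was, although miR-29b is part of that mean. MiR-410, miR-376a and miR-411 are known members of a large imprinted miRNA cluster, and miR-137 is a neuronal miRNA. After median centring the 5 exceeded sorted cells in tissue by 3.88, 4.23, 4.97, 3.33 and 3.23 log2 units, a description with no test, since they were chosen on these samples for a pattern that this contrast dominates.

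The tissue holds cell types that a sort or a younger cortex may lack, and lists of miRNAs known from such cells were read beside the family. Neuronal miRNAs, among them miR-124 and miR-9, were determined in all 12 samples. On the U6 scale all 5 were higher in tissue (median difference 4.27), and after median centring 2 of 5 were, miR-129-3p by 1.82 and miR-124 by 1.27 (median 1.28, limma adjusted p = 0.00018 and 0.0099). The shares over all assays were 62.2% and 23.9%. The members' medians were 9.02 and 6.03 on the same scales, with the medians of all assays at 3.02 and 0.03.

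Vascular miRNAs of smooth muscle (miR-143, miR-145) and endothelium (miR-126) moved the same way as the family. In this cortex miR-143 is not a marker of vessels alone. The study's in situ hybridization showed it densely in stellate neurons, also in pyramidal cells, and in only part of the vessels. All 4 were higher in tissue on the U6 scale (median 6.06), where 62.2% of all assays were. After median centring miR-126-5p by 3.79 and miR-126-3p by 2.92 passed, 2 of 4 (median 3.07), against 23.9% of all assays. The mean U6-scaled Ct of this list was 9.18 to 12.8 in stellate samples, 11.4 to 13.8 in non-stellate samples, and 5.68 and 6.18 in tissue, with 1 well undetermined among the sorted samples.

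Blood and microglial miRNAs were higher in tissue for 4 of 5 tested on the U6 scale (median 3.80) and for 1 of 5 after median centring, miR-142-3p by 3.03 (median 0.81). These shares are near those of all assays, 62.2% and 23.9%. The sixth, miR-142-5p, was undetermined in all 10 sorted samples and had a Ct of 30.2 and 30.4 in tissue. Their mean U6-scaled Ct was 13.4 to 14.7 in stellate samples, 10.1 to 14.5 in non-stellate samples, and 9.47 and 9.95 in tissue. That range includes miR-155, the tested assay of this list that was not higher on the U6 scale. Its Ct was 11.3 and 11.7 in non-stellate 3 and 5, and 32.1 to 35.5 in the other sorted samples. Both oligodendrocyte miRNAs were missing from most sorted samples and so were not tested. MiR-219 was undetermined in 8 of 10 and miR-338-3p in 7 of 10, and in tissue their Ct was 25.1 to 25.6 and 28.6 to 29. Their mean U6-scaled Ct was 19.3 to 22.1 in stellate samples, 17.7 to 22.3 in non-stellate samples, and 10.9 and 11.7 in tissue. The part of these cell types in the miR-29 differences was not tested.

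Lists tied to age and growth had lower medians than all tested assays. Over all 222 assays, 62.2% were higher in tissue and 1.35% lower on the U6 scale, and 23.9% and 25.2% after median centring. Both lists hold miR-20a, so their counts are not separate. The age list holds only falling miRNAs. Among the rising ones, the study reports the miR-29 family as the largest increase, by microarray in MEC layers. Of 5 miRNAs that the study's text lists as falling with age in other MEC samples, 2 were higher in tissue on the U6 scale, miR-301b by 4.91 and miR-130b by 1.91, and none lower (median 0.70). After median centring 3 were lower, miR-15b, miR-20a and miR-298, and miR-301b was higher by 1.92 (median -2.29). The miR-17-92 cluster, known for its role in dividing cells, had 2 of 6 members higher on the U6 scale, miR-19a by 3.98 and miR-19b by 3.52, and 0 lower (median 0.51). After median centring 4 of 6 were lower, with miR-92a at -4.09 and miR-17 at -3.79, and miR-19a was higher by 0.99 (median -2.47). Since a change of reference moves all assays alike, the turn in sign follows from the scaling. Relative to the median of all assays, the list medians were -2.32 for age and -2.50 for the cluster on both scales, against 6.01 for the 3 members. In stellate against non-stellate cells no tested assay of these lists passed the adjusted limma test on either scale.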

How the data were processed

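Total RNA from sorted cells and from tissue was reverse transcribed, pre-amplified and run on TaqMan Rodent card A. The raw table deposited by the authors holds Ct, in PCR cycles and thus on a log2 scale, with 40 for undetermined wells and no normalization. The scaled table deposited by the authors, also on the log2 scale, holds Ct less the U6 mean of the sample, checked over 380 assays (largest difference 7.1e-15). Tables of the authors' own comparisons (fold changes and limma statistics) were not used. No depth exists for such cards, so the number of determined wells stands in for it, and 12 arrays limit the precision.

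Levels were U6 mean minus Ct. An assay was tested when undetermined in at most 3 of 10 sorted samples (222 assays, 153 not tested), and all 3 members passed this filter, miR-29b with exactly 3. Two-sided tests used limma 3.58.1 in R 4.3.3 (lmFit, eBayes, Benjamini-Hochberg over 222 assays, threshold 0.05), without a block, since the methods name none. The tissue contrast, against both sorted groups averaged, came from a fit of 12 samples, and stellate against non-stellate from a fit of 10. Single values were compared by exact permutation (66 and 252 splits, smallest p 0.0152 and 0.00794), and correlations by permutation with 100000 resamples. The labels call the samples biological replicates. They give labelled and unlabelled cells of 5 replicates, so same numbers were read as pairs. The departures of paired samples from their group means had correlations over assays of 0.331, 0.119, 0.256, 0.155 and 0.0743. The mean for different numbers was -0.0481, which is no separate baseline, since removing group means ties it to the paired values.

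The named miRNAs were the members, 5 miRNAs from the study's text, the marker lists, and the 5 assays nearest to the members' mean pattern, and assays ranked beside the members were named after their values were seen. The members and lists were chosen with earlier results of these data known. In all 45 alternatives were fixed for scaling, undetermined wells, filters, moderation, the block and samples left out, and 8 were added after seeing the data, most of which combine another choice with median centring. In simulated data (222 assays, 40 changed, 20 sets), the tissue fit recovered 81.8% of log2 changes of 4 and 16.0% of changes of 2, and the fit of sorted samples 87.8% and 37.5%. Each simulated assay varied independently of the others. In the data 138 assays were called higher and 3 lower in tissue on the U6 scale, so these rates need not hold there. Sequences and coordinates are from RefSeq on GRCr8, with 4 hairpins matched. Analyses outside R used Python 3.11.15 with SciPy 1.17.1, and figures matplotlib 3.10.9.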

Additional observations from a re-analysis of the deposited data

Results flagged for a closer look

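The Ct difference of miR-29c minus miR-29a was 6.68 cycles in stellate 1 and 6.90 cycles in non-stellate 1, each farther from the rest of its group than Dixon's 95% critical value for 5 samples (0.71) allows, with gap over range of 0.79 and 0.746. They were the only values to stand apart among 12 groups of values (the 3 members on the U6 scale and the 3 within-sample differences, in each sorted group), and chance marks about 1 group in 20, or 0.6 of 12. Both samples carry replicate number 1, and their U6-scaled miR-29c, at 18.07 and 17.19 cycles, did not pass the same limit (0.616 and 0.574). Raw Ct of these miR-29c wells was 34.9 and 35.3, close to the end of the measurable range.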

How the results depend on the processing

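The higher level of all 3 members in tissue held in direction and under the 0.05 threshold in each of the 137 alternative values computed. They ranged from 4.26 to 8.52 for miR-29a, from 5.32 to 11.04 for miR-29b and from 5.52 to 9.78 for miR-29c, with the largest limma adjusted p at 0.0101 where both tissue samples entered. In the fits with 1 tissue sample (1 left out, or both averaged into 1) it was 0.026, and there the spread comes from the sorted groups alone, with tissue assumed to vary like them. A random replicate block left the sizes at 7.76, 9.63 and 9.02 and changed no call. Between stellate and non-stellate cells the replicate block gave 0.12, 2.83 and 0.14 with 0 calls (limma adjusted p = 0.978, 0.396 and 0.963), so it changed no call either. MiR-29b had no value with assays determined in all 12 samples.

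The counts over all assays in tissue against sorted cells moved with the reference. They were 138 higher and 3 lower on the U6 scale, 53 and 56 with median centring, 63 and 49 with the global mean, and 17 and 51 with Y1. The count of lower assays was 5 with Ct capped at 35, 56 with no assay filter and 1 with tissue counted as 1 sample, and ran from 1 to 4 with single samples left out, with the 1 reached without tissue 1. Of the lists, higher counts with median centring and with the global mean were 1 and 1 for age, 2 and 3 for neuron, and 1 and 1 for blood and microglia, and with median centring 2 for vascular and 1 for the miR-17-92 cluster. Lower counts were 3 and 3 for age and 4 and 4 for that cluster.

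The differences between stellate and non-stellate cells had no stable sign, and no setting gave a call. MiR-29a and miR-29c were -0.28 and -0.25 with median centring, also with undetermined wells missing or with the replicate block, and -0.22 and -0.19 with the global mean. MiR-29b was -0.0549 with Ct capped at 35, and -0.20 with median centring and undetermined wells missing. Without non-stellate 3 and 5, whose description conflicts, miR-29a was -0.35, and -0.48 with median centring. Without them miR-29b stayed higher in stellate cells on both scales, with its well in non-stellate 4 still undetermined. With single samples left out on either scale, miR-29a ran from -0.41 to 0.38 and miR-29c from -0.82 to 0.89, the ends for miR-29c set by non-stellate 1 and stellate 1. In that comparison the Ct difference of miR-29c minus miR-29a, -0.02 over all samples, ran from -0.73 without stellate 1 to 0.73 without non-stellate 1 and was 0.024 without both. With undetermined wells left out, miR-29b minus miR-29c turned to 0.97 between stellate and non-stellate cells, and to 1.02 between tissue and sorted cells.

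Correlations between members also changed sign. For miR-29b with miR-29a, r was 0.44 on the U6 scale and 0.18 for deviations from group means. For miR-29c with miR-29a, r was 0.0537 on the U6 scale and 0.76 without the 2 farthest samples, which are stellate 1 and non-stellate 1. For miR-29b with miR-29c, r was 0.32 with undetermined wells left out and 0.0784 without the 2 farthest samples, which for miR-29b are non-stellate 3 and 4, while without stellate 1 and non-stellate 1 it was -0.49. The causes were not tested.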
